A study of Mus musculus with 35 samples.

Results

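Cadherins are single-pass membrane proteins that hold neighbouring cells together through calcium-dependent binding of their extracellular repeats. The classical type I and type II cadherins end in a cytoplasmic tail that binds catenins and, through these, actin. Protocadherins carry more of the same extracellular repeats, lack the catenin-binding tail, and serve contact recognition, cell sorting, and the wiring of axons and dendrites. In the developing brain they are known for holding the neuroepithelium together, for sorting neurons into nuclei and layers, and, in vessels, for the endothelial junction. The genes described here are all those whose symbol is *Cdh* followed by a number or begins with *Pcdh*, matched by Ensembl identifier to the protein-coding genes of the bulk table. This gave 92 of 21865 protein-coding genes, of which 35 are non-clustered genes spread over the genome and 57 are the clustered protocadherins, which lie side by side on chromosome 18 as 14 *Pcdha*, 22 *Pcdhb*, and 21 *Pcdhg* genes. By role the 35 non-clustered genes comprise 5 type I cadherins, 13 type II cadherins, 5 other cadherins, 4 delta-1 protocadherins, 5 delta-2 protocadherins, and 3 other protocadherins.

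The cells came from the brains of wild-type mouse embryos at stage E14.5 and were sorted by fluorescence with antibodies, without any transgene. Neural cells were what remained after gating out cells with CD45, CD41, CD11b, PECAM1, CD102, or PDGFRβ, mural cells (pericytes and smooth muscle of vessels) were PDGFRβ-high, endothelial cells were PECAM1+ and CD102+, and microglia were CD11b+ with medium CD45. All 4 populations were taken from each of 3 brains, whose neural libraries are labelled N-340, N-343, and N-346 and the others likewise (Mu-, Ec-, and Mi-), giving 12 bulk RNA-seq libraries. In a separate experiment, single cells of the same 4 populations were sorted on 3 plates of wild-type cells, without CD11b among the markers that define the neural gate, and sequenced from their 3′ ends.

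The bulk libraries held between 17638358 and 98414914 reads assigned to genes. Neural libraries were made from more RNA with another kit than the other 9, so that in each contrast with neural cells the kit and the population cannot be told apart. All 6 markers chosen for each population were higher there than in the mean of the other 3. The 6 endothelial markers (*Pecam1*, *Kdr*, *Cd93*, *Cldn5*, *Tie1*, *Tek*) summed to between 153174 and 180355 normalized counts in endothelial cells, 2141 to 3804 in mural cells, 996 to 1191 in microglia, and 99.1 to 115 in neural cells. The 6 neural markers (*Tubb3*, *Sox11*, *Dcx*, *Map2*, *Stmn2*, *Elavl3*) summed to between 153874 and 165676 in neural cells, 16526 to 29575 in mural cells, 16057 to 16123 in endothelial cells, and 5780 to 8570.2 in microglia, of which *Sox11* made up most in mural libraries (17425, 23249.8 and 13511) and endothelial libraries (13516, 13265 and 12307), and no marker of the neural list was at 0 in any population. In mural cells 6 fibroblast markers summed to between 5640 and 7754, of which *Col3a1* made up most, whereas *Pdgfra* stood at 0, 0 and 0.939. Of 5 border macrophage markers 4 were tested, and all 4 were over 10-fold higher in microglial libraries, where the list summed to between 14920 and 18717 against 325 to 994 in mural libraries (2 higher, mainly *Mrc1*), 97.5 to 279 in endothelial libraries, and 2.67 to 3.96 in neural libraries. The 4 erythroid markers summed to between 5567 and 15489 in endothelial libraries and 3773 to 4960 in neural libraries, with 2 higher in each, against 173 to 241 in mural libraries and 705 to 880 in microglial libraries. The part of these markers in the members' levels was not tested. Throughout, 3 values in a row are those of these brains in that order, and a level is a normalized count.

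Neural cells expressed most of the non-clustered family, endothelial and mural cells a part of it with a few members at high level, and microglia little. With limma on log2(normalized count + 1), 31 of the 35 non-clustered members were tested (*Cdh3*, *Cdh16*, *Cdh17*, and *Cdh19* fell under a mean of 10). Against the mean of the other 3 populations, 24 of the 31 were higher in neural cells at an adjusted p under 0.05, where 32.9% of all 19765 genes tested were, and 2 (*Cdh5* and *Pcdh12*) were lower (31.2%). Of the 24, 18 were over 10-fold higher (13.8%). Mural cells had 9 members higher (19.3%) and 10 lower (22.7%), and endothelial cells 6 higher (19.7%) and 16 lower (22.4%). In microglia 1 member, *Cdh23*, was higher (23.4%) and 19 were lower (22.3%). Over 10-fold higher were 5 members in mural cells (*Cdh6*, *Cdh10*, *Cdh11*, *Pcdh12*, and *Pcdh18*, 4.99%), 3 in endothelial cells (*Cdh5*, *Pcdh1*, and *Pcdh12*, 6.28%), and *Cdh23* alone in microglia (8.27%). The mean of the other 3 is, here and below, that of log2 levels, which a population near 0 pulls down. A member can thus pass in a population that is not its highest, as *Pcdh12* and *Cdh10* did in mural cells. The median log2 difference of the 31 members was 4.36 for neural, 0.10 for mural, -2.21 for endothelial, and -3.07 for microglial cells, against medians over all genes tested of 0.09, -0.10, -0.12, and -0.02. With populations at 0 in every library set to 3 reads, the members' medians became 4.11, -0.34, -1.19, and -2.54. Of the 31, 6 reached the minimum only through their neural values (*Cdh9*, *Cdh18*, *Cdh20*, *Cdh22*, *Pcdh8*, and *Pcdh20*), so that they had to be higher there and these counts and medians are partly set by the filter. With the minimum taken over the 9 other libraries, chosen after seeing the data, 25 non-clustered members remained. Of these 18 were higher in neural cells (29.8% of 18814 genes), 12 of them over 10-fold (10.1%), and the numbers higher and lower were 9 (20.3%) and 6 (21.4%) for mural, 6 (20.7%) and 10 (20.6%) for endothelial, and 1 (24.5%) and 15 (21.0%) for microglial libraries. The median log2 difference of the 25 was 3.62 for neural, 1.083 for mural, -0.46 for endothelial, and -3.16 for microglial cells, against -0.06, -0.04, -0.06, and 0.05 over all genes kept. Bulk values cannot tell apart fewer expressing cells from less RNA per cell.

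A stricter call asked for a member to be higher in 1 population than in each of the other 3. By this rule neural cells led 11 members (17.0% of all genes tested), *Cdh7*, *Cdh8*, *Cdh9*, *Cdh18*, *Cdh20*, *Cdh22*, *Cdh24*, *Pcdh8*, *Pcdh10*, *Pcdh15*, and *Pcdh20*. The 6 that reached the minimum only through their neural values are all among the 11, and their differences are given below as a description without p. Over the 25 kept by the other libraries neural cells led 5 (13.9%). With no minimum neural cells led 12 of the 35 (13.4%). Mural cells led 1, *Cdh11* (4.18%), endothelial cells led *Cdh5* and *Pcdh12* (4.13%), and microglia led none (8.21%), although 1622 genes were led by microglia. With edgeR on the reads recovered from the table, 9 members were led by neural cells (14.6%), 8 of them among the 11, mural cells also led *Pcdh18* (3.38%), endothelial cells also led *Pcdh1* (2.9%), and microglia again led none (6.43%), as in DESeq2 and in limma at an unadjusted p under 0.05. Of the 11, *Cdh7*, *Cdh8*, and *Pcdh15* lost the call in edgeR and, together with *Pcdh10*, in DESeq2. With 1 brain left out, *Cdh8* lost it each time, *Cdh7* without the brain of N-343 or that of N-346, *Pcdh15* without that of N-340 or N-346, and *Pcdh10* without that of N-343, leaving 8 or 9 led. Without the brain of N-346, *Cdh11* lost its call as led by mural cells, and *Pcdh12* lost its call as led by endothelial cells without the brain of N-343 and also without that of N-346, leaving 0 and 1 members led. Quantile normalization also took *Pcdh12* from the members led by endothelial cells and added *Pcdh1* and *Pcdh17*. Of the non-clustered members, 17 had all 3 neural libraries above the 9 others (25.2%), 4 all 3 endothelial libraries (6.28%), 2 all 3 mural libraries (7.25%), and 1 all 3 microglial libraries (11.5%). The 17 include the 6 that reached the minimum only through their neural values, so that this count too is partly set by the filter. In the other direction, the neural libraries were below the 9 others for *Pcdh12* (17.3%), the endothelial libraries for *Cdh1* (2.99%), the microglial libraries for *Cdh2*, *Cdh11*, *Pcdh1*, *Pcdh17*, and *Pcdh19* (5.97%), and the mural libraries for none (4.3%).

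**Figure D1:**
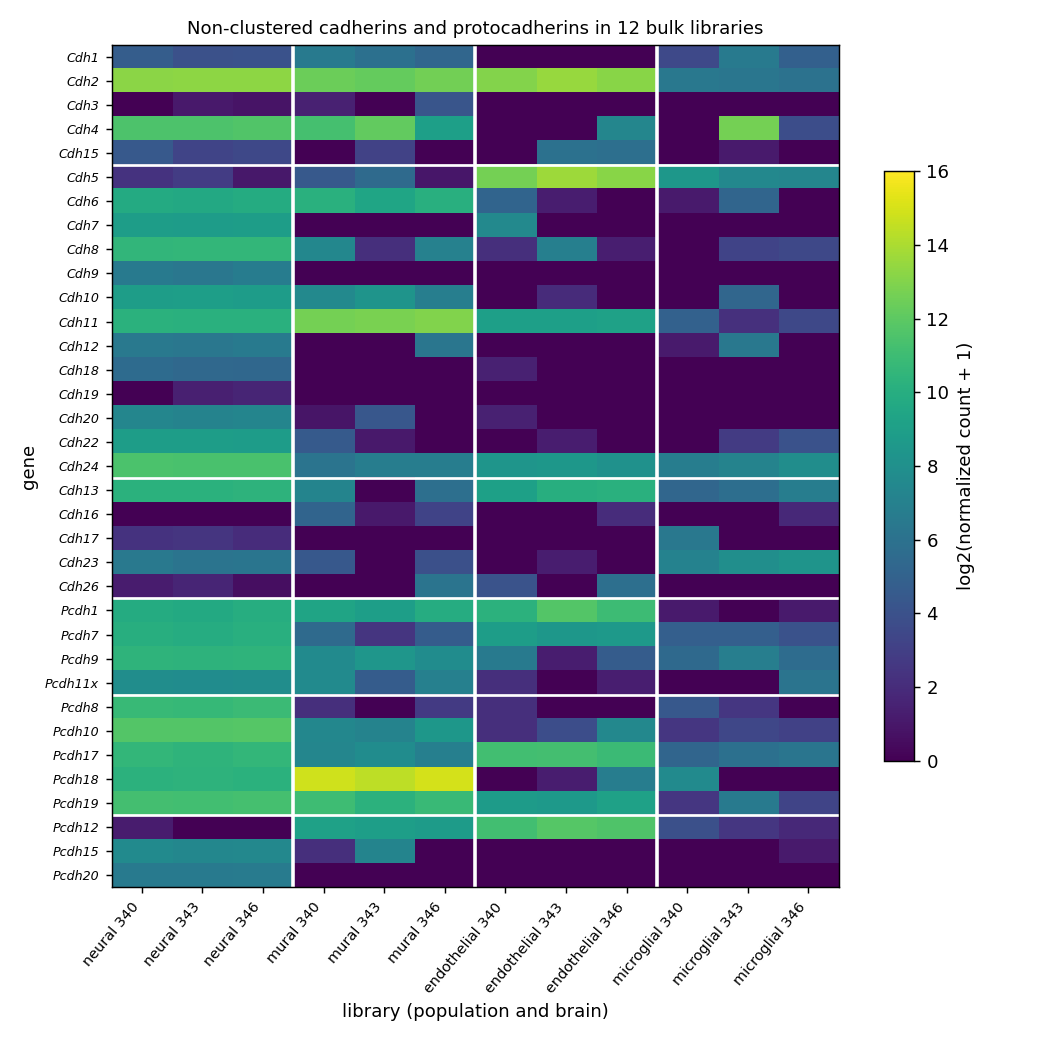
Heatmap of the 35 non-clustered members (rows, grouped as type I, type II, and other cadherins and delta-1, delta-2, and other protocadherins) in the 12 bulk libraries (columns), coloured by log2(normalized count + 1). The neural columns are filled for 28 of 35 rows at 10 or more in some library, whereas the microglial columns hold 4 members with a mean of at least 100.

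Among the type I cadherins, which include the junction proteins of epithelium and neuroepithelium, *Cdh2* was the most abundant. *Cdh2* (N-cadherin, the main adherens-junction cadherin of neural progenitors) stood at 9655, 9896 and 10018 in neural libraries, 5338, 4696 and 6281 in mural libraries, 8514, 11989 and 9010.0 in endothelial libraries, and 83.2, 75.9 and 65.5 in microglial libraries. Neural and endothelial values overlapped, mural values lay below both, and all microglial values were far lower. Neural and endothelial cells were not told apart (log2 difference 0.02 ± 0.17, adjusted p = 0.937), whereas both exceeded mural cells (by 0.87 ± 0.17, adjusted p = 0.00113 for neural and 0.85 ± 0.17, adjusted p = 0.00315 for endothelial cells). Microglia were lower than mural cells, the next population up, by 6.16 ± 0.17, adjusted p = 3.20e-09. Errors of bulk log2 differences are standard errors with 3 libraries per population. Each rests on 1 spread per gene fitted over all 12 libraries, so libraries outside the pair that differ widely enlarge it. A pair not told apart by limma can therefore still have libraries that lie close together within each population.

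*Cdh4* (R-cadherin, a close relative of *Cdh2*) stood at 2934, 2905 and 3259.8 in neural libraries, 2453, 4498 and 522 in mural libraries, 0, 0 and 161 in endothelial libraries, and 0, 6436 and 12.6 in microglial libraries. The neural libraries agreed closely, whereas the mural values spread over several-fold and 1 microglial library alone carried nearly all of the microglial signal. Neural cells exceeded endothelial cells (log2 difference 9.12 ± 2.80, adjusted p = 0.0166), as did mural cells (8.36 ± 2.80, adjusted p = 0.047), and neural and mural cells were not told apart (0.76 ± 2.80, adjusted p = 0.848). In edgeR neither neural nor mural cells passed against endothelial cells (adjusted p = 0.0642 and 0.123). The difference between neural cells and microglia did not pass in limma (6.09 ± 2.80, adjusted p = 0.0827). *Cdh1* (E-cadherin, of epithelia) reached 95.7, 58.2 and 38.5 in mural cells and at most 25.4 in neural cells and was at 0 in all 3 endothelial libraries, so that mural cells were at least 13.6-fold above endothelial cells, counted against 3 reads per library. Its microglial level was 90.1 in Mi-343, within the range of the mural values, and at most 29.0 in the other microglial libraries. *Cdh15* (M-cadherin, of muscle) did not exceed 61.0 in any library and *Cdh3* (P-cadherin) did not exceed 17.8.

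The 13 type II cadherins, which in brain mark regions, layers, and sets of synapses, held 7 of the 11 members led by neural cells together with *Cdh5* and *Cdh11*, led by endothelial and mural cells respectively. *Cdh5* (VE-cadherin, the adhesive core of endothelial junctions, chr8:104101625-104144511, plus strand) stood at 6372, 12635 and 9103 in endothelial libraries, 345.9, 179 and 164 in microglial libraries, 20.97, 44.5 and 0.939 in mural libraries, and 4.01, 6.09 and 1.06 in neural libraries. Every endothelial value was above every other, and every microglial value was above the mural and neural values. Endothelial cells exceeded microglia by a log2 difference of 5.37 ± 1.003, adjusted p = 0.0017, mural cells by 9.50 ± 1.003, adjusted p = 5.01e-05, and neural cells by 11.08 ± 1.003, adjusted p = 4.96e-06. Microglia in turn exceeded mural cells (4.12 ± 1.003, adjusted p = 0.00737) and neural cells (5.70 ± 1.003, adjusted p = 0.000559). In the same microglial libraries *Pecam1*, the marker on which these cells were gated as negative, stood at 1027, 457 and 835 against 65.5, 50.2 and 38.5 in mural cells, whereas the other 5 endothelial markers were lower in microglia than in the mean of the other populations. *Kdr* stood at 132, 319 and 271 in microglia and 492, 249 and 477 in mural cells, and *Cd93* at 15.5, 106 and 65.5, *Cldn5* at 0, 0 and 3.78, *Tie1* at 2.38, 115 and 16.4, and *Tek* at 1.19, 0 and 0 in microglia. The part of these markers in the microglial level of *Cdh5* was not tested.

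*Cdh11* (a cadherin of mesenchyme and bone, chr8:102632095-102785642, minus strand) stood at 6491, 7127 and 8017 in mural libraries, 1168, 1136 and 1123 in neural libraries, 528, 518 and 567 in endothelial libraries, and 30.9, 3.56 and 10.1 in microglial libraries. The mural values were above all others, neural values followed, endothelial values came next, and microglial values were lowest, with no overlap between any pair of populations. Mural cells exceeded neural cells by 2.65 ± 0.53, adjusted p = 0.00153, and endothelial cells by 3.74 ± 0.53, adjusted p = 0.000414. Neural and endothelial cells were not told apart by the test (1.09 ± 0.53, adjusted p = 0.102), although both exceeded microglia (by 6.61 and 5.52, adjusted p = 1.57e-06 and 1.22e-05). *Cdh6*, its relative known from kidney and from boundaries of the forebrain, stood at 1140.4, 668 and 1099.8 in mural libraries, 873, 795 and 919 in neural libraries, 35.4, 1.42 and 0 in endothelial libraries, and 1.19, 35.6 and 0 in microglial libraries. Here mural and neural values overlapped and were not told apart (0.13 ± 1.42, adjusted p = 0.958), and both exceeded endothelial cells (mural by 7.73 ± 1.42, adjusted p = 0.00216, neural by 7.60 ± 1.42, adjusted p = 0.000933). *Cdh10* showed a related order, with 473, 492 and 453 in neural libraries, 184, 307 and 116 in mural libraries, 0, 37.9 and 0 in microglial libraries, and 0, 2.84 and 0 in endothelial libraries. Neural and mural cells were not told apart (1.33 ± 1.27, adjusted p = 0.403) and mural cells exceeded endothelial cells (6.91 ± 1.27, adjusted p = 0.00212) and microglia (5.79 ± 1.27, adjusted p = 0.00399, but 0.0605 in edgeR).

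The type II cadherins led by neural cells differed in how much signal the other populations held. *Cdh24* stood at 2822, 2699.6 and 2689 in neural libraries, 317, 358 and 273 in endothelial libraries, 107, 143 and 230.4 in microglial libraries, and 69.9, 107 and 108 in mural libraries. Its neural values were above all others, yet all 9 other libraries carried signal, and neural cells exceeded endothelial cells by 3.12 ± 0.32, adjusted p = 1.36e-05. Endothelial cells also exceeded mural cells (1.74 ± 0.32, adjusted p = 0.00228) and microglia (1.04 ± 0.32, adjusted p = 0.0303). *Cdh8*, which joins specific synaptic partners, stood at 1449, 1539 and 1522 in neural libraries, 168, 3.42 and 128 in mural libraries, 3.54, 118 and 1.51 in endothelial libraries, and 0, 8.30 and 10.1 in microglial libraries. The neural libraries were close to each other, and neural cells exceeded mural cells by 5.04 ± 1.69, adjusted p = 0.0259, whose libraries ranged over more than 10-fold, and in edgeR this missed the threshold (adjusted p = 0.0521). *Cdh22* stood at 489, 479 and 457 in neural libraries, 22.3, 1.14 and 0 in mural libraries, 0, 5.93 and 15.1 in microglial libraries, and 0, 1.42 and 0 in endothelial libraries, with neural cells above microglia by 6.63 ± 1.23. *Cdh7* stood at 483, 458 and 485 in neural libraries, 181, 0 and 0 in endothelial libraries, and 0 in every mural and microglial library. Neural cells were at least 189-fold above mural cells and at least 131-fold above microglia, counted against 3 reads per library, and exceeded endothelial cells, where 1 library carried all the signal, by 6.39 ± 1.59, adjusted p = 0.0054, a difference that did not pass in edgeR (3.03, adjusted p = 0.235).

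The remaining 3 led by neural cells were lower in level. *Cdh20* stood at 159, 141 and 154 in neural libraries, 0.874, 19.4 and 0 in mural libraries, 1.77, 0 and 0 in endothelial libraries, and 0 in every microglial library, and neural cells exceeded mural cells by 5.50 ± 0.96. *Cdh9*, known from connections of the hippocampus and retina, stood at 93.5, 79.7 and 104 in neural libraries, and 0 in every mural, endothelial and microglial library. That is at least 36.7-fold above mural cells, 19.7-fold above endothelial cells, and 25.4-fold above microglia against 3 reads per library. *Cdh18* stood at 46.7, 40.98 and 39.6 in neural libraries, 1.77, 0 and 0 in endothelial libraries, and 0 in every mural and microglial library, at least 16.9-fold above mural cells and 11.7-fold above microglia. *Cdh12* reached 81.4 to 94.6 in neural cells and exceeded no other population than endothelial cells (adjusted p = 0.0102 in limma and 0.0559 in edgeR), and 1 mural library held 77.02 and 1 microglial library 83.01. *Cdh19*, known from the neural crest lineage, did not exceed 2.1 anywhere.

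The 5 other cadherins differ from the classical ones in tail or anchor. *Cdh13* (T-cadherin, held to the membrane by a lipid anchor and a receptor for adiponectin) stood at 1213, 1208 and 1309.8 in neural libraries, 553, 1050.4 and 1154 in endothelial libraries, 38.04, 54.5 and 111 in microglial libraries, and 146, 0 and 55.4 in mural libraries. Neural values were above the endothelial values, yet the populations were not told apart (0.51 ± 1.41, adjusted p = 0.783). Neural cells exceeded mural cells by 5.94 ± 1.41, adjusted p = 0.00442 and endothelial cells exceeded mural cells by 5.44 ± 1.41, adjusted p = 0.0151. *Cdh23*, which with *Pcdh15* forms the tip links of hair cells in the inner ear, was the only tested member with its highest mean in microglia and stood at 136, 237 and 307 in microglial libraries, 89.5, 70.9 and 74.8 in neural libraries, 20.1, 0 and 14.1 in mural libraries, and 0, 1.42 and 0 in endothelial libraries. All 3 microglial values were above the neural values, but the pairwise difference did not pass (1.45 ± 1.04, adjusted p = 0.251). Microglia exceeded mural cells by 4.98 ± 1.04, adjusted p = 0.00298 and endothelial cells by 7.33 ± 1.04, adjusted p = 0.000241, and neural cells exceeded the same populations (by 3.53 and 5.88, adjusted p = 0.0139 and 0.000627, and 0.0591 in edgeR for the first). *Cdh16* of kidney, *Cdh17* of gut, and *Cdh26* stayed at or below 84.4 in every library, and each was at 0 in all 3 libraries of at least 1 population.

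The delta-1 protocadherins, whose tails bind protein phosphatase 1, were each higher in neural cells than in the mean of the other 3 populations, and none was led by neural cells in limma, whereas edgeR called *Pcdh9* and DESeq2 *Pcdh7* and *Pcdh9* as led by them. *Pcdh1* (chr18:38185914-38212053, minus strand) stood at 1249, 3442 and 2010.4 in endothelial libraries, 907, 849 and 982 in neural libraries, 661, 491 and 965 in mural libraries, and 1.19, 0 and 1.26 in microglial libraries. All endothelial values were above the 9 others, and the microglial values were at or near 0. The test of endothelial against neural cells narrowly missed the threshold (1.17 ± 0.47, adjusted p = 0.0514), and endothelial cells exceeded mural cells by 1.59 ± 0.47, adjusted p = 0.0267. With edgeR endothelial cells exceeded neural cells as well (adjusted p = 0.0244). *Pcdh7* stood at 1054, 951 and 1081 in neural libraries, 482, 346.4 and 386 in endothelial libraries, 45.00, 4.57 and 24.4 in mural libraries, and 27.3, 27.3 and 15.1 in microglial libraries. Neural and endothelial cells were not told apart (1.35 ± 0.67, adjusted p = 0.106) and both exceeded mural cells (by 5.78 ± 0.67, adjusted p = 3.41e-05 and 4.43 ± 0.67, adjusted p = 0.000641) and microglia. *Pcdh9* stood at 1383, 1326 and 1337 in neural libraries, 198, 336 and 221 in mural libraries, 42.8, 115 and 50.4 in microglial libraries, and 97.5, 1.42 and 24.1 in endothelial libraries, with no overlap between the neural and the other libraries, although neural cells were not told apart from mural cells by limma (2.46 ± 1.05, adjusted p = 0.068) and were higher in edgeR (adjusted p = 0.0431). *Pcdh11x* (X-linked) stood at 229.7, 214 and 232 in neural libraries, 203, 23.97 and 123.0 in mural libraries, 0, 0 and 71.8 in microglial libraries, and 3.54, 0 and 1.51 in endothelial libraries. The mural values ranged widely and neural and mural cells were not told apart (1.40 ± 1.51, adjusted p = 0.465), whereas neural cells exceeded microglia by 5.76 ± 1.51, adjusted p = 0.00681, without passing in edgeR (adjusted p = 0.113).

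The delta-2 protocadherins, whose tails can recruit the actin-regulating WAVE complex, were highest in neural cells (*Pcdh8*, *Pcdh10*, and *Pcdh19*), mural cells (*Pcdh18*), or endothelial cells (*Pcdh17*). *Pcdh18* (chr3:49743296-49757325, minus strand) held the highest level of the family and stood at 29583, 21344 and 32630.0 in mural libraries, 1249.9, 1314 and 1171 in neural libraries, 202, 0 and 0 in microglial libraries, and 0, 1.42 and 107 in endothelial libraries. The mural values were more than 10-fold above every neural value, the neural values agreed closely, and 4 of the 6 endothelial and microglial libraries held 1 read or none. Mural cells exceeded endothelial cells by 12.07 ± 2.03, adjusted p = 0.00125 and microglia by 12.19 ± 2.03, adjusted p = 0.000685. The test against neural cells did not pass in limma (4.46 ± 2.03, adjusted p = 0.0855) and passed in edgeR (adjusted p = 0.0238). *Pcdh17* stood at 2321, 2420.2 and 1905 in endothelial libraries, 1521, 1361 and 1544 in neural libraries, 162, 224 and 120.2 in mural libraries, and 36.8, 59.3 and 73.02 in microglial libraries. The endothelial values were above all others, neural values followed, and the remaining libraries were at 224 or less. Endothelial and neural cells were not told apart by the test (0.58 ± 0.31, adjusted p = 0.135), and both exceeded mural cells (by 3.75 ± 0.31, adjusted p = 9.67e-06 and 3.16 ± 0.31, adjusted p = 1.04e-05).

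*Pcdh10* (OL-protocadherin, of growing axons) stood at 3304, 3351 and 3559 in neural libraries, 166, 143 and 359 in mural libraries, 3.54, 12.8 and 176 in endothelial libraries, and 4.75, 9.49 and 7.55 in microglial libraries. Its neural values were above all others, mural values came next, and neural cells exceeded mural cells by 4.05 ± 1.06, adjusted p = 0.00746. *Pcdh8* (arcadlin, which reduces N-cadherin at synapses) stood at 1739, 1716 and 1881 in neural libraries, 20.2, 4.74 and 0 in microglial libraries, 3.496, 0 and 5.64 in mural libraries, and 3.54, 0 and 0 in endothelial libraries. This was among the sharpest differences between neural cells and all the rest, with a log2 difference of 8.49 ± 1.14 against microglia. *Pcdh19*, X-linked and known from an inherited epilepsy, stood at 2421, 2252 and 2453 in neural libraries, 2071, 1232 and 1873 in mural libraries, 436, 386 and 578 in endothelial libraries, and 4.75, 90.1 and 8.81 in microglial libraries. All neural values were above all mural values, yet the populations were not told apart (0.49 ± 0.79, adjusted p = 0.629), and endothelial cells exceeded microglia by 4.74 ± 0.79, adjusted p = 0.000795.

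The 3 other non-clustered protocadherins included *Pcdh12* (VE-cadherin-2, chr18:38267089-38284402, minus strand), which stood at 2296, 3539 and 3084 in endothelial libraries, 559, 489.6 and 446 in mural libraries, 14.3, 4.74 and 2.52 in microglial libraries, and 1.34, 0 and 0 in neural libraries. The 4 populations did not overlap. Endothelial cells exceeded mural cells by 2.56 ± 0.63, adjusted p = 0.011 and mural cells exceeded microglia by 6.20 ± 0.63, adjusted p = 1.69e-05. Neural cells held 1 read in all. In the same mural libraries *Tek* stood at 1610.1, 1495 and 2452 against 7483, 11566 and 8755 in endothelial cells, *Cldn5* stood at 126.3, 0 and 147, and *Cdh5* at 20.97, 44.5 and 0.939. Their part in the mural level of *Pcdh12* was not tested. That level was 16.8% of the endothelial one, while for *Cdh5* the mural level was 0.236%. *Pcdh15* stood at 199, 172 and 176 in neural libraries, 3.496, 147 and 0 in mural libraries, 0, 0 and 1.26 in microglial libraries, and 0 in every endothelial library. Neural cells exceeded mural cells, where 1 library carried most of the signal, by 4.39 ± 1.40, adjusted p = 0.0206 in limma, which edgeR did not call (1.86, adjusted p = 0.376). They were at least 38.8-fold above endothelial cells. *Pcdh20* stood at 94.8, 96.9 and 100.7 in neural libraries, and 0 in every mural, endothelial and microglial library, which is at least 38.7-fold above mural cells, 20.7-fold above endothelial cells, and 26.8-fold above microglia against 3 reads per library.

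**Figure D2:**
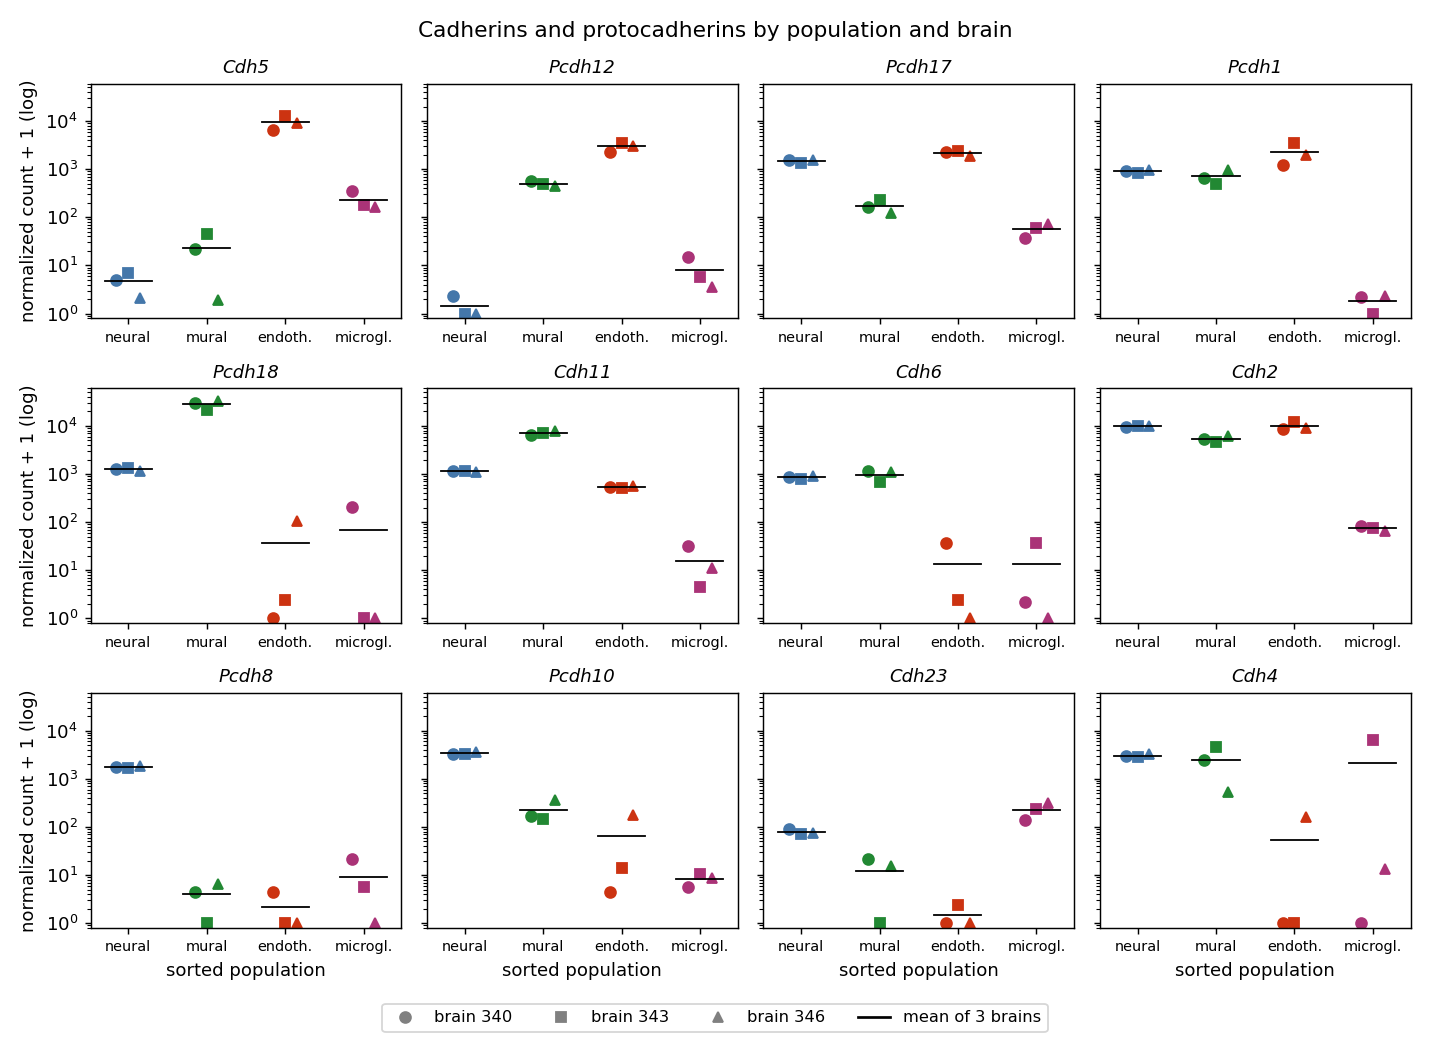
Normalized count + 1 (log axis) of 12 members in each library, with 1 panel per gene, 1 symbol per brain, and a line at the mean of 3 brains. *Pcdh18* and *Cdh11* are highest in mural cells, *Cdh5* and *Pcdh12* in endothelial cells, *Pcdh8* and *Pcdh10* in neural cells, and the microglial mean of *Cdh4* rests on Mi-343.

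Promoter sequences are shown for 6 genes, 1 highest in mural cells (*Pcdh18*), 1 highest in endothelial cells (*Pcdh17*), and 4 led by neural cells (*Pcdh8*, *Pcdh10*, *Pcdh20*, and *Cdh24*). For *Pcdh18* and *Pcdh17* the limma test against neural cells did not pass. Each run is the 5′ to 3′ sequence just before the annotated start of the gene on its own strand, from RefSeq on GRCm38.p6, 250 bases long except for *Pcdh18* (241 bases). Capitals mark GGGCGG (the GC box), CCAAT (the CCAAT box), or TATAAA (the TATA box), each on either strand, so that CCGCCC and ATTGG are the same motifs on the other strand. The windows lie at chr3:49757326-49757566, chr14:84443313-84443562, chr14:79771313-79771562, chr3:45378148-45378397, chr14:88471397-88471646, and chr14:54641365-54641614, with *Pcdh17* and *Pcdh10* on the plus strand and the rest on the minus strand.
Pcdh18: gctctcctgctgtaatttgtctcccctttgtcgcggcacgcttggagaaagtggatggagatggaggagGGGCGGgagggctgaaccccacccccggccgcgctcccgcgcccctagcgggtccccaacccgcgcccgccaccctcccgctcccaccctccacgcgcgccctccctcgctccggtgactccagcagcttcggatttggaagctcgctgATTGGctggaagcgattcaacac
Pcdh17: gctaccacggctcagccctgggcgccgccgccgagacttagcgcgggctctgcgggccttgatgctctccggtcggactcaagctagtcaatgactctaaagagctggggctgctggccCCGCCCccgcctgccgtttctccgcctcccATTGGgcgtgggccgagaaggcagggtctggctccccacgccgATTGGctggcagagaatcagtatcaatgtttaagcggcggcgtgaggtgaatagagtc
Pcdh8: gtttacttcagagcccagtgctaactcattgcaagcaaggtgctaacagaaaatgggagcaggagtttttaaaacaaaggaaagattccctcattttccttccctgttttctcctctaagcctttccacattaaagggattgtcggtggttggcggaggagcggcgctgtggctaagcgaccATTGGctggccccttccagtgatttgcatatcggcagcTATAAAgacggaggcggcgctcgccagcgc
Pcdh10: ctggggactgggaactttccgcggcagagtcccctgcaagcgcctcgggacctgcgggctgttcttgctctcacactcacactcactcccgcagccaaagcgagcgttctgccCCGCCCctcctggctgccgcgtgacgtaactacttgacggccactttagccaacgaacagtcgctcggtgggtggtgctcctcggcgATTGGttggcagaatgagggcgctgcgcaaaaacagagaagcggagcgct
Pcdh20: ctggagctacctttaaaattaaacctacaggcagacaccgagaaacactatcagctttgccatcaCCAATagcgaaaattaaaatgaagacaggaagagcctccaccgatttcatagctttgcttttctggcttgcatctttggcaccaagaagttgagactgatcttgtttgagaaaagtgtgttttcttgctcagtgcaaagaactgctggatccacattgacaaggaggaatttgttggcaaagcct
Cdh24: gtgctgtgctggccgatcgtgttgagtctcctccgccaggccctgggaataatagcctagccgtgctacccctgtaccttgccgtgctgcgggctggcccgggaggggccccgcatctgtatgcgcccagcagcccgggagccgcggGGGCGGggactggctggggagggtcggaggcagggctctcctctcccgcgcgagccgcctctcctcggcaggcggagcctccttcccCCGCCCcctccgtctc

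The GC content of these windows was 67.6% for *Pcdh18*, 64.8% for *Pcdh17*, 51.2% for *Pcdh8*, 63.2% for *Pcdh10*, 42.4% for *Pcdh20*, and 72.8% for *Cdh24*, against a median of 52.4% over 32851 RefSeq windows of the mouse. *Pcdh20* held 3 CpG and *Pcdh8* 11, whereas the other 4 held 21 or 22, against a median of 6. Of these 6 windows only that of *Pcdh8* held TATAAA, and GGGCGG was found in *Pcdh18*, *Pcdh17*, *Pcdh10*, and *Cdh24*. All except *Cdh24* held CCAAT. Over 25 windows matched to 22 members, CCAAT was found in 15 (33.8% of all windows), GGGCGG in 9 (32.7%), and TATAAA in 2 (12.4%). A partial element of the neuronal silencer REST (TTCAGCACC) was found in 1 member window (0.301% of all), and its other part (GGACAGCGC, 0.304%) and a PU.1 sequence (GAGGAAGT, 2.44%) in none. A match of letters is a description and not a measured site.

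To compare genes with each other, levels were divided by the exon length of each gene in kilobases. Per kilobase, *Cdh2* led in neural cells (1222), followed by *Cdh24* (784), *Cdh4* (418), and *Pcdh8* (392). In mural cells *Pcdh18* (5191) was followed by *Cdh11* (809.9) and *Cdh2* (674). In endothelial cells *Cdh5* (2229) came before *Cdh2* (1219.7), *Pcdh12* (491), and *Pcdh1* (254), although by count alone *Cdh2* was ahead of *Cdh5*. In microglia the top value, 296 for *Cdh4*, rested on Mi-343, and *Cdh5* (54.6) and *Cdh24* (45.9) followed. By count, neural cells held 21 of the 35 non-clustered members at a mean of at least 100, mural cells 13, endothelial cells 10, and microglia 4. Members under 10 in all 3 libraries of a population numbered 7, 8, 16, and 13 in the same order.

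The clustered protocadherins are recognition molecules of single neurons. Each *Pcdha* and *Pcdhg* messenger joins 1 variable exon, with its own promoter, to constant exons shared by the whole cluster, whereas each *Pcdhb* gene is a single exon. Most variable exons are chosen at random in each neuron by promoters that CTCF and cohesin bring to distant enhancers, and the C-type genes (*Pcdhac1*, *Pcdhac2*, *Pcdhgc3*, *Pcdhgc4*, *Pcdhgc5*) are used more uniformly. On GRCm38 the *Pcdha* genes span chr18:36930184-37187661, the *Pcdhb* genes chr18:37264938-37524479, and the *Pcdhg* genes chr18:37661793-37841873, all on the plus strand. By the annotation a median of 46.4% of a *Pcdha* gene's exon bases, 54.8% of a *Pcdhg* gene's, and 100% of a *Pcdhb* gene's overlap no other gene. How reads in the shared exons were assigned is not given in the sources used here, so levels of single *Pcdha* and *Pcdhg* genes are uncertain by that share. Neural means were 3.05 for *Pcdha1* and 1.88 for *Pcdha4* against 289 for *Pcdhac2*, whose constant exons they share. What this means for the assignment was not tested. *Pcdhga10* has no exon base of its own in this annotation.

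Neural cells expressed nearly the whole repertoire, mural and endothelial cells part of *Pcdhb* and *Pcdhg*, and microglia a few *Pcdhg* genes. Of 57 clustered members 48 were tested, of which 13 (the 9 *Pcdha* genes, *Pcdhb6*, *Pcdhb11*, *Pcdhb15*, and *Pcdhga10*) had a mean under 10 over the 9 other libraries and entered through their neural values. Over the other 35, 27 were higher in neural cells than in the mean of the other 3 (29.8% of all genes kept in the same way), 24 of them over 10-fold (10.1%), and none was lower (32.8%). In mural cells none was higher (20.3%) and none lower (21.4%), in endothelial cells 3 were higher (*Pcdhb20*, *Pcdhb21*, and *Pcdhga6*, 20.7%) and 5 lower (20.6%), and in microglia none was higher (24.5%) and 24 were lower (21.0%). Over all 48 tested, 40 were higher in neural cells (32.9% of all genes tested), 37 of them over 10-fold (13.8%). Those lower numbered 11 for mural (22.7%), 15 for endothelial (22.4%), and 35 for microglial libraries (22.3%). These counts include members the filter let in for being high in neural cells, among them all 9 *Pcdha* genes in the mural and endothelial counts. The 37 also include *Pcdhb10*, *Pcdhb19*, and *Pcdhga2*, whose highest mean was in another population. The 35 lower in microglia became 18 in edgeR (15.4% of all genes), 23 with a minimum of 50 (25.3%), and 11 without the neural libraries (14.7%). At an unadjusted p under 0.05 in limma, mural cells had 3 clustered members higher (*Pcdhb17*, *Pcdhb21*, and *Pcdhgb7*, 23.1% of all genes), neural cells none lower (33.0%), and microglia none higher (26.6%). Both edgeR and DESeq2 called 6 higher in mural cells (20.4% of all genes in edgeR and 20% of those with an adjusted p in DESeq2). The median log2 difference over the 35 was 4.15 for neural, 0.27 for mural, -0.02 for endothelial, and -3.71 for microglial cells, and over the 48 it was 4.78, -0.09, -0.89, and -3.46, or 3.71, -0.65, -0.79, and -2.71 with populations at 0 set to 3 reads. Neural cells led 17 members (17.0% of all genes tested), namely all 9 tested of *Pcdha*, 2 of 18 of *Pcdhb*, and 6 of 21 of *Pcdhg*. No clustered member was led by another population (4.18% for mural, 4.13% for endothelial, and 8.21% for microglial cells). All of these 17 but *Pcdhga11* and *Pcdhgc3* reached the minimum of 10 only through their neural values (with these at 0 the mean over 12 libraries is under 10), so that the count was largely set by the filter. Over the 35 kept by the other libraries neural cells led 5 (13.9%). With a replicate block for the brain neural cells led 15 (16.7% of all genes), *Pcdhb11* and *Pcdhga1* losing the call. edgeR, with its own filter, called 15 led by neural cells (14.6%), 10 of them shared. It lost *Pcdha12*, *Pcdhb11*, *Pcdhb15*, *Pcdhga1*, *Pcdhga8*, *Pcdhga11*, and *Pcdhgb2*, so that 2 of the 6 *Pcdhg* genes were left. It gained *Pcdha6*, another *Pcdha11* entry, *Pcdhb2*, *Pcdhb12*, and *Pcdhb13*. All of these were under the limma minimum and at 0 in every library outside neural cells, so that they had to be higher there. *Pcdhb15* lost its call whichever brain was left out, and *Pcdhb11*, *Pcdhga1*, *Pcdhga8*, *Pcdhga11*, and *Pcdhgb2* each lost it in 2 of the 3 cases. All 3 neural libraries were above the 9 others for 28 members (25.2%), and all 3 microglial libraries below them for 8 (5.97%). The 28 include the 9 *Pcdha* genes, *Pcdhb15*, and *Pcdhga10*, which entered through their neural values, so that this count too is partly set by the filter.

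Summed over each cluster, *Pcdha* was present in neural cells (896, 860.0 and 845) and nearly absent elsewhere (0, 0 and 1.88 in mural, 0, 0 and 3.02 in endothelial, and 22.6, 0 and 0 in microglial libraries). *Pcdhb* summed to 2028, 1702 and 1799 in neural, 679.9, 1458 and 908 in mural, 1371, 1255 and 1579 in endothelial, and 0, 119.8 and 3.78 in microglial libraries. The endothelial and mural sums of *Pcdhb* thus overlapped, all lay below the neural sums, and the microglial sums were lower than any other. *Pcdhg* had the largest sum of the 3 in every library but Mu-343, where *Pcdhb* was larger, and summed to 8404, 8346 and 8606 in neural, 1921, 988 and 1999 in mural, 1745, 3087 and 1662 in endothelial, and 252, 395 and 489.7 in microglial libraries. Every neural sum of *Pcdhg* was above every sum of the other 9 libraries. Sums carry no test.

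**Figure D3:**
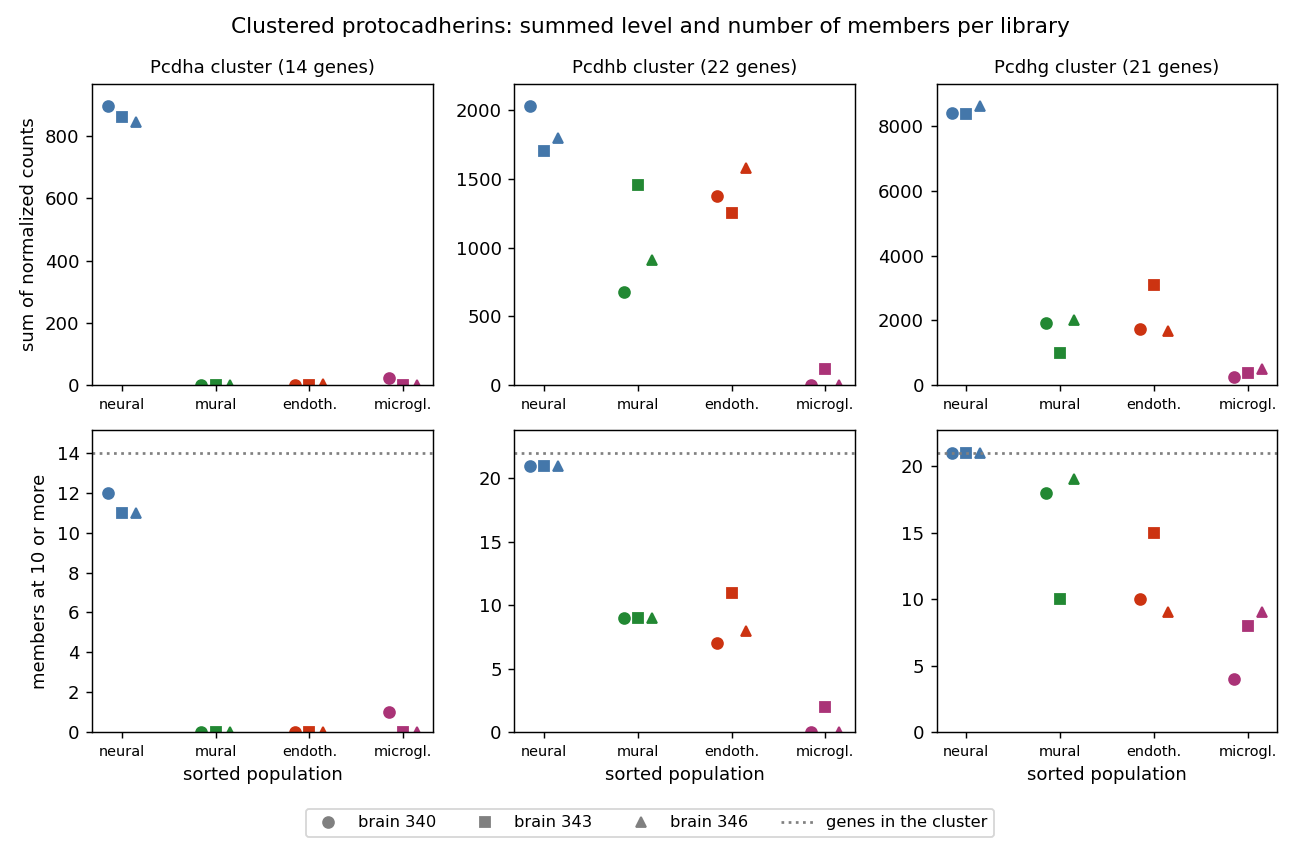
Summed normalized count (upper row, linear axes from 0) and number of members at 10 or more (lower row) of the 3 protocadherin clusters in each library, with 1 symbol per brain and a dotted line at the number of genes. *Pcdha* is seen in neural cells, whereas mural and endothelial cells hold *Pcdhb* and *Pcdhg* at lower sums with 7 to 19 members each at 10 or more.

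The C-type genes and the most abundant members behaved differently by cluster. *Pcdhac2* stood at 286, 285 and 296 in neural libraries, 0, 0 and 3.02 in endothelial libraries, 0, 0 and 1.88 in mural libraries, and 0 in every microglial library, and *Pcdhac1* at 49.4, 59.8 and 65.5 in neural libraries, and 0 in every mural, endothelial and microglial library. *Pcdhac2* was at least 79.5-fold higher in neural cells than in microglia against 3 reads per library, and *Pcdhac1* at least 23.1-fold higher than in mural cells. After *Pcdhac2* the highest *Pcdha* means were those of *Pcdha12*, with 112, 96.4 and 89.8 in neural libraries, 22.6, 0 and 0 in microglial libraries, and 0 in every mural and endothelial library, and *Pcdha9*, with 64.1, 58.1 and 70.01 in neural libraries, and 0 in every mural, endothelial and microglial library, both above *Pcdhac1*. All neural values of these 4 genes were above all 9 others. *Pcdhgc3*, the most abundant clustered gene in neural cells but not in the other populations, stood at 2660.1, 2714 and 2843 in neural libraries, 54.9, 593 and 232 in endothelial libraries, 125.8, 167 and 173 in mural libraries, and 1.19, 0 and 1.26 in microglial libraries. Neural cells exceeded endothelial cells by 3.79 ± 0.74, adjusted p = 0.0012 and mural cells by 4.15 ± 0.74, adjusted p = 0.000696, and endothelial cells exceeded microglia by 6.86 ± 0.74, adjusted p = 2.93e-05.

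*Pcdhgc4* and *Pcdhgc5* did not follow *Pcdhgc3*. *Pcdhgc4* stood at 539, 657 and 291 in endothelial libraries, 401, 395 and 408 in neural libraries, 265, 70.8 and 216 in mural libraries, and 0, 15.4 and 121 in microglial libraries, with endothelial and neural cells not told apart (0.22 ± 1.33, adjusted p = 0.905). *Pcdhgc5* stood at 227, 52.5 and 145 in endothelial libraries, 105, 94.1 and 113 in neural libraries, 15.7, 53.6 and 15.03 in mural libraries, and 0, 2.37 and 28.96 in microglial libraries, again with endothelial and neural cells not told apart (0.21 ± 1.12, adjusted p = 0.893). *Pcdhga12* was the only clustered member above 100 in all 12 libraries, at 322, 298 and 299 in neural libraries, 316, 151 and 359 in mural libraries, 331, 163 and 222 in endothelial libraries, and 119, 178 and 129.7 in microglial libraries. Its neural values exceeded the microglial ones in limma (1.12 ± 0.41, adjusted p = 0.0332) and not in edgeR (adjusted p = 0.0559), and no other pair of populations was told apart. Of *Pcdhb*, *Pcdhb20* stood at 477, 256 and 479.6 in endothelial libraries, 5.24, 314 and 97.7 in mural libraries, 135, 111 and 132 in neural libraries, and 0, 53.4 and 0 in microglial libraries, *Pcdhb17* at 247, 205 and 211 in neural libraries, 70.3, 239 and 133 in mural libraries, 15.9, 4.26 and 415 in endothelial libraries, and 0, 0 and 1.26 in microglial libraries, and *Pcdhb19* at 544, 17.03 and 99.5 in endothelial libraries, 227, 172 and 168 in neural libraries, 32.3, 91.3 and 6.57 in mural libraries, and 0 in every microglial library. For each of these 3 the neural libraries were close to each other while mural libraries of different brains differed several-fold, as did the endothelial libraries for *Pcdhb17* and *Pcdhb19*. Endothelial cells exceeded microglia for *Pcdhb20* by 6.68 ± 1.62, adjusted p = 0.00856 (in edgeR adjusted p = 0.088), and neither neural nor mural cells were told apart from endothelial cells.

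Outside neural cells the set of clustered genes that was detected changed from brain to brain. At 10 or more, 53 of the 57 members were found in neural cells of all 3 brains, against 11 for mural, 12 for endothelial, and 2 for microglial cells. A further 15 members were found in 2 brains and 11 in 1 brain in mural cells, and 7 and 10 in endothelial cells. For example, *Pcdhga2* stood at 7.09, 778 and 0 in endothelial cells and *Pcdhb19* at 544, 17.03 and 99.5, whereas their neural values were 235, 277 and 258 and 227, 172 and 168. These genes were picked after their values were seen. Among clustered members with a mean of 100 to 1000, the median coefficient of variation over brains was 8.84% for neural (28 genes), 57.6% for mural (9 genes), and 78.8% for endothelial cells (12 genes). All genes in the same range of means had 5.51%, 33.7%, and 44.8%, and the non-clustered members in that range had 5.15% (8 genes), 32.4% (8 genes), and 17.2% (5 genes). At a mean of 10 to 100 the clustered members had 118% in mural cells (28 genes) and 141% in endothelial cells (15 genes), against 98.5% (11 genes) and 163% (9 genes) for the non-clustered members and 89.3% and 97.8% for all genes, so that in endothelial cells the order was the reverse. In microglia the same range gave 163% for 13 clustered, 118% for 14 non-clustered, and 77.3% for all genes, whereas the 1 clustered gene with a mean of 100 to 1000 had 22.1% against 30.1% for all genes. No test was made of this spread.

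**Figure D4:**
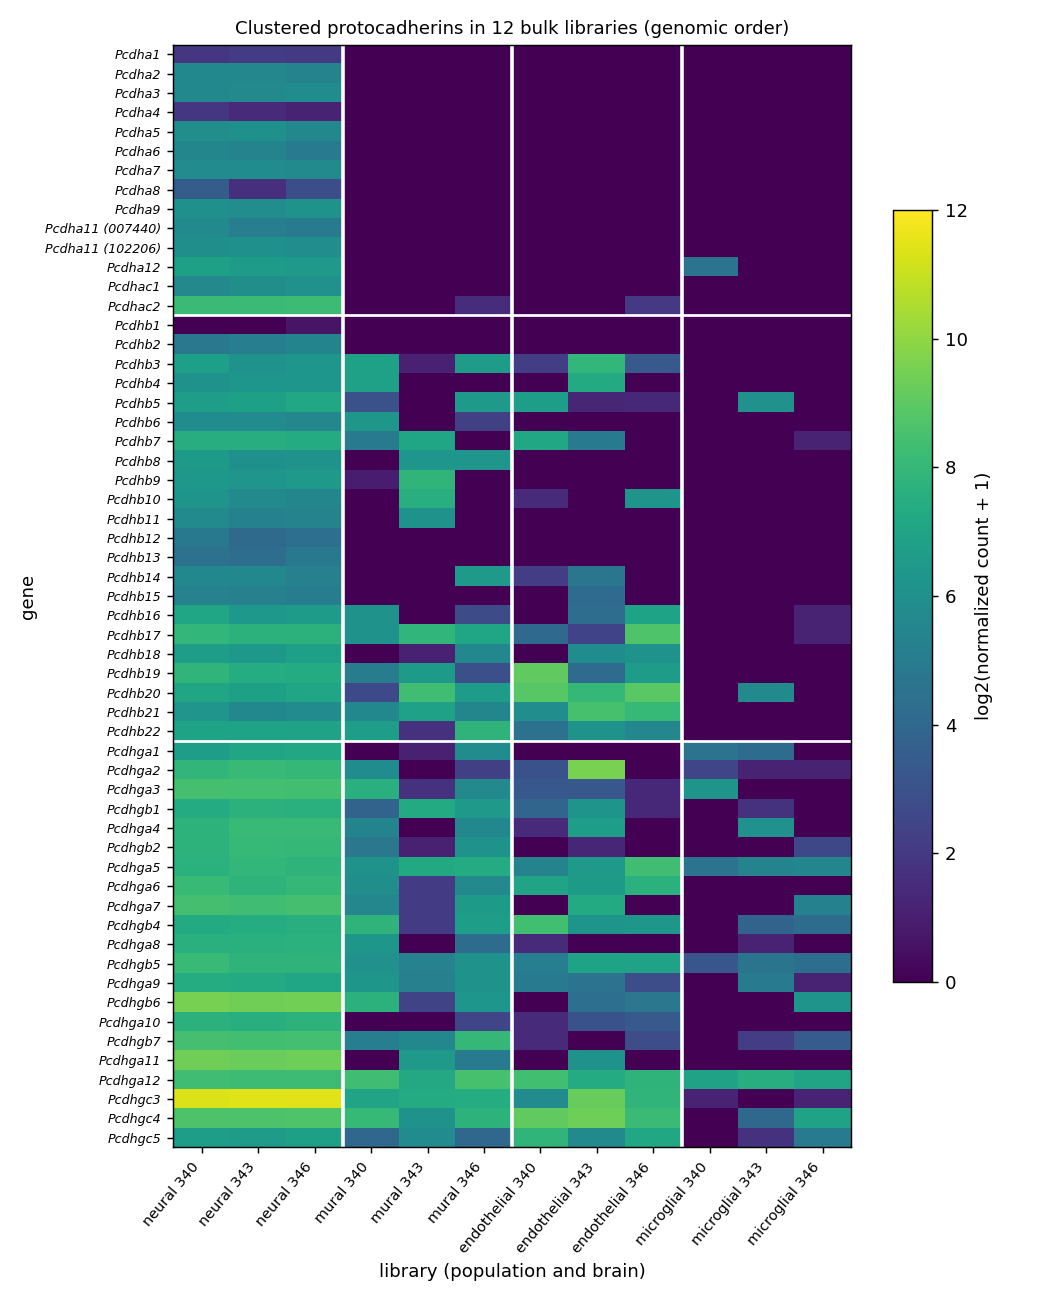
Heatmap of the 57 clustered protocadherins in genomic order (rows, with lines between *Pcdha*, *Pcdhb*, and *Pcdhg*) in the 12 bulk libraries (columns), coloured by log2(normalized count + 1). The 3 neural columns look alike, whereas within mural, endothelial, and microglial columns different rows are filled in different brains, *Pcdhga12* being above 100 in all 12.

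Of the genes that work with cadherins, the 11 catenins and linkers were all tested. Against the mean of the other 3 populations, neural cells had 6 higher and 2 lower, mural cells 3 and 4, endothelial cells 5 and 3, and microglia 0 and 7. Over all genes the shares higher and lower in these contrasts are those given for the members (32.9 and 31.2% for neural, 19.3 and 22.7% for mural, 19.7 and 22.4% for endothelial, and 23.4 and 22.3% for microglial cells), and several counts of this and the next lists are near them. *Ctnnd2* (delta-catenin of synapses, 4.58 ± 0.48, adjusted p = 1.18e-05), *Arvcf* (3.51 ± 0.28, adjusted p = 1.40e-06), and *Ctnna2* (alpha-N-catenin, 5.71 ± 1.33, adjusted p = 0.00318) were over 10-fold higher in neural cells. *Jup* (plakoglobin), which links *Cdh5* to the cytoskeleton, was at 6645, 11798 and 9683 in endothelial libraries, 5101, 4611 and 6319 in mural libraries, 4179, 4447 and 4919 in microglial libraries, and 868, 894 and 985 in neural libraries, higher in endothelial cells (1.71 ± 0.16, adjusted p = 1.70e-05) and lower in neural cells. Microglia, with the lowest *Cdh2* of all populations, held 3509 of *Ctnnb1* (beta-catenin) on average, which is 9.54% of the neural level. *Jup*, *Ctnnb1*, and *Ctcf* were chosen after their values were seen.

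Of 24 other genes of the cadherin superfamily 15 were tested, 12 of which were higher in neural cells, each over 10-fold, and 1 was lower. *Cdhr1* passed the minimum only through its neural values, and over the 14 others 11 were higher, each over 10-fold (10.1% of all genes kept in the same way). Mural cells had 3 higher and 7 lower, endothelial cells 3 and 8, and microglia 2 and 10. The 12 comprised *Celsr1* to *Celsr3*, *Fat1*, *Fat3*, *Fat4*, *Dchs1*, and *Dchs2*, several of them genes of planar polarity, the 3 calsyntenins (*Clstn*), and *Cdhr1*, with *Celsr3* at 8.71 ± 0.60, adjusted p = 4.83e-07 and *Dchs1* at 6.31 ± 0.36, adjusted p = 1.10e-07. *Clstn2*, a calsyntenin, was higher still in mural cells and stood at 1908, 2194 and 1700.0 in mural libraries, 613, 528 and 692 in neural libraries, and 0 in every endothelial and microglial library, and *Dchs2* was the other gene over 10-fold higher in mural cells (4.25 ± 0.62, adjusted p = 0.000308). *Cdhr3* stood at 63.00, 14.2 and 17.6 in microglial libraries, 0, 95.1 and 0 in endothelial libraries, 1.34, 2.77 and 2.91 in neural libraries, and 0 in every mural library, and its log2 difference for microglia passed (3.42 ± 1.19, adjusted p = 0.0371) although the endothelial mean, from 1 library, was as high (31.7 against 31.6). Among 11 regulators of clustered promoters neural cells had 4 higher and 3 lower, mural cells 0 and 3, endothelial cells 4 and 3, and microglia 1 and 3, with *Ctcf* at 5924, 6139.6 and 6032 in neural libraries, 3351, 3362 and 2755 in mural libraries, 4148, 4331 and 4755 in endothelial libraries, and 3039, 3056 and 2665 in microglial libraries. Of the 9 WAVE complex genes, which delta-2 protocadherins can recruit, neural cells had 4 higher and 4 lower, with *Wasf1* (4.94 ± 0.62, adjusted p = 4.74e-05) and *Cyfip2* (4.55 ± 0.46, adjusted p = 9.08e-06) over 10-fold higher, mural cells 2 and 4, endothelial cells 2 and 2, and microglia 5 and 4, with *Nckap1l* over 10-fold higher (10.95 ± 1.47, adjusted p = 0.000123).

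In single cells, 70 of the 92 members had a row in the tables, and 14, all non-clustered, passed the filter on low counts among 9281 genes tested. After removal of wells with 1500 transcripts or fewer, 123 neural, 210 mural, 225 endothelial, and 128 microglial cells remained, with median depths of 7717, 6885, 6408, and 10761 transcripts. Plate 3 held 6 to 14 cells per gate. On sums per gate and plate, edgeR called 9 of the 14 higher in the neural gate against the mean of the other 3 (22.5% of all genes tested) and 1, *Cdh11*, lower (17.3%). Without plate 1 the 9 became 5 (11.8% of the genes then tested). The mural gate had 7 higher (13.5%) and none lower (8.3%), the endothelial gate 7 higher (16.4%) and 2 lower (6.96%), and the microglial gate none higher (22.2%) and 12 lower (21.2%). The neural gate led 6 (*Cdh4*, *Cdh13*, *Pcdh7*, *Pcdh8*, *Pcdh9*, and *Pcdh10*, 10.2%), the mural gate 2 (*Cdh11* and *Pcdh18*, 4.08%), the endothelial gate 4 (*Cdh2*, *Cdh5*, *Pcdh12*, and *Pcdh17*, 4.95%), and the microglial gate none (11.3%). At an unadjusted p under 0.05 the microglial gate still had none higher, and the mural gate had *Pcdh7* and *Pcdh17* lower. Only genes with enough transcripts in some gates could pass, so that these counts do not describe the whole family. A gene could also pass through the sums of 1 gate alone, and such a gene had to be higher there. This holds for *Cdh5*, which had no transcript in any mural or neural cell. The counts of members higher or led are thus partly set by the filter, and how many entered this way was not counted.

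*Pcdh18* was found in 93.3% of mural cells (89.1 to 96.3%), 22.8% of neural cells, 9.78% of endothelial cells, and 9.38% of microglia. After thinning every cell to 1500 transcripts the shares were 69.05, 2.44, 4.000, and 1.56%. Intervals are exact binomial (Clopper-Pearson) at 95% and cover counting error only. In CPM (transcripts scaled to a common total) it stood on plates 1, 2, and 3 at 50.9, 40.2 and 54.7 in the neural gate, 871, 894 and 796 in the mural gate, 30.2, 7.86 and 427 in the endothelial gate, and 11.8, 10.9 and 0 in the microglial gate. The mural sums were above all others, the endothelial sum of plate 3, from 13 cells, came next, and the mural gate exceeded the neural gate by 4.15 ± 0.55, adjusted p = 7.86e-09. Errors of single-cell differences are the absolute log2 difference over the square root of the F statistic of edgeR. *Cdh11* stood at 31.00, 21.3 and 21.9 in the neural gate, 261, 263 and 219.7 in the mural gate, 65.7, 48.7 and 42.7 in the endothelial gate, and 7.40, 6.22 and 0 in the microglial gate CPM. All mural sums were above all others, with 74.8% of mural cells (68.3 to 80.5%) against 26.2% of endothelial and 17.1% of neural cells, and endothelial sums were above the neural ones, whereas in the bulk libraries the neural values were the higher ones. The endothelial gate exceeded the neural gate by 1.26 ± 0.38, adjusted p = 0.0065.

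*Cdh5* was found in 73.8% of endothelial cells (67.5 to 79.4%), 3.12% of microglia, and 0 of 210 mural and 0 of 123 neural cells, which allows shares of cells with a *Cdh5* transcript of up to 1.74 and 2.95% at this depth and sets no limit on cells that express the gene. *Pcdh12* was found in 47.1% of endothelial cells (40.4 to 53.9%) and 15.7% of mural cells (11.1 to 21.4%), against 2.44% of neural cells and 0.781% of microglia, the deepest gate. Thinned, these shares were 14.7 and 4.29% in the vascular gates and 0 in both others. *Pcdh12* sums stood at 4.43, 2.37 and 0 in the neural gate, 23.7, 22.4 and 54.9 in the mural gate, 102, 104 and 99.7 in the endothelial gate, and 0, 1.55 and 0 in the microglial gate CPM, and the endothelial gate exceeded the mural gate by 2.16 ± 0.34, adjusted p = 7.42e-07. No mural cell held a *Cdh5* transcript. *Pcdh17* was found in 40% of endothelial and 26.02% of neural cells, with sums of 57.6, 63.9 and 87.6 in the neural gate, 17.4, 17.7 and 13.7 in the mural gate, 133, 110.0 and 28.5 in the endothelial gate, and 5.92, 3.11 and 0 in the microglial gate CPM. On plate 3 the neural sum was above the endothelial sum, the reverse of plates 1 and 2.

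*Cdh2* was found in 86.2% of endothelial, 78.6% of mural, 74.8% of neural, and 7.81% of microglial cells, with sums of 334, 319.5 and 142 in the neural gate, 336, 334 and 343.3 in the mural gate, 719, 655 and 385 in the endothelial gate, and 7.40, 7.77 and 0 in the microglial gate CPM. Endothelial sums were above all others, and the endothelial gate exceeded the neural gate by 1.26 ± 0.31, adjusted p = 0.000798, where the bulk libraries did not tell these apart. *Pcdh1* differed between the assays and stood at 2.21, 4.73 and 0 in the neural gate, 52.2, 75.6 and 41.2 in the mural gate, 64.6, 69.1 and 71.2 in the endothelial gate, and 0, 1.55 and 0 in the microglial gate CPM, and it was found in 2 of 123 neural cells (1.63%, 0.198 to 5.75%) against 34.2% of endothelial and 33.8% of mural cells, whereas its bulk neural level was 40.9% of the endothelial one. In the single-cell sums the mural and endothelial gates were not told apart (0.24 ± 0.31, adjusted p = 0.695).

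Members led by the neural gate were found in a minority of neural cells. *Pcdh10* was found in 32.5% (24.4 to 41.6%) and at most 6.67% elsewhere, *Cdh4* in 28.5% of neural and 13.8% of mural cells, and *Pcdh9* in 28.5% of neural and at most 3.33% of other cells. *Cdh4* stood at 1.48, 1.55 and 0 CPM in the microglial gate against 75.3, 61.5 and 87.6 in the neural gate. *Cdh13* was found in 15.4% of neural and 7.11% of endothelial cells, *Pcdh7* in 17.9 and 9.33%, and *Pcdh8* in 18.7% of neural and 0 of 225 endothelial cells (up to 1.63% of cells with a transcript). *Pcdh19* was found in 46.2% of mural, 34.1% of neural, and 24% of endothelial cells, with sums of 106, 92.3 and 43.8 in the neural gate, 123.5, 103 and 124 in the mural gate, 66.7, 47.1 and 85.5 in the endothelial gate, and 1.48, 3.11 and 0 in the microglial gate CPM. Neural and mural gates were not told apart for it (0.29 ± 0.29, adjusted p = 0.488), as in the bulk libraries.

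**Figure D5:**
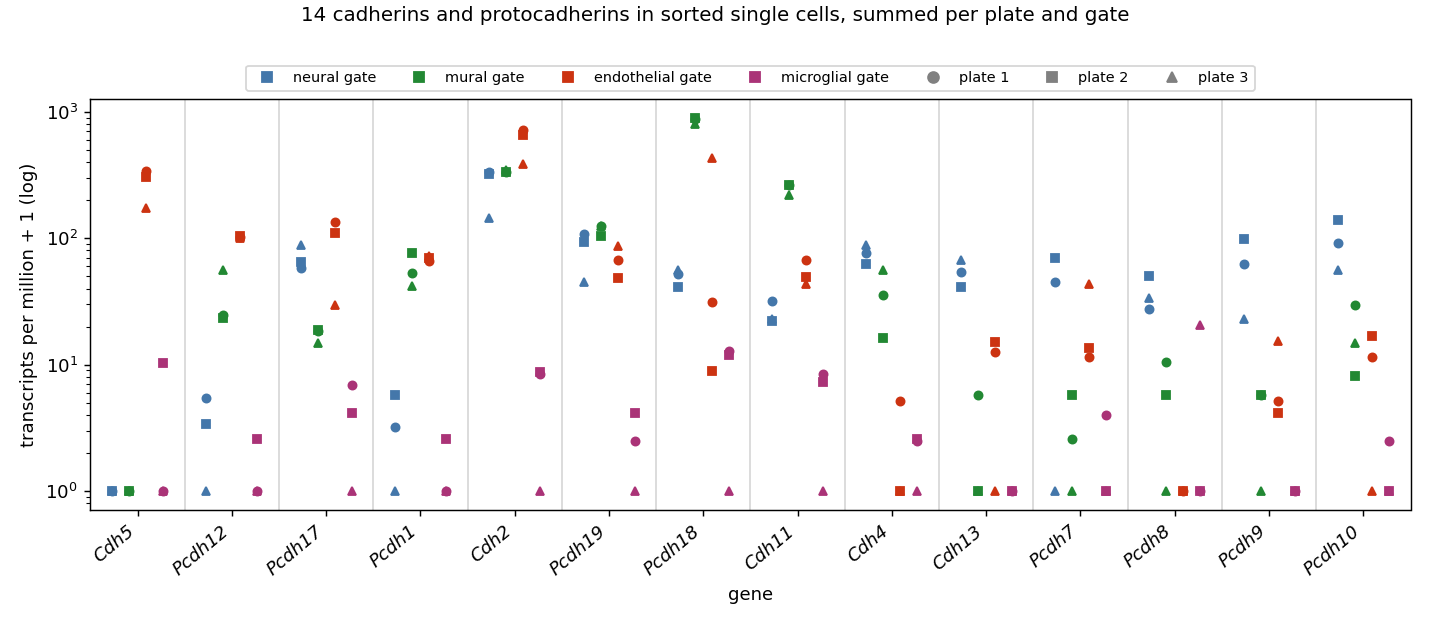
CPM + 1 (log axis) of the 14 members that passed the filter, summed over the wells of each gate (colour) on each plate (symbol). Mural sums of *Pcdh18* lie between 796 and 894 CPM, endothelial sums of *Cdh5* between 171 and 339, and microglial sums are at or under 19.7 for all 14 genes.

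Clustered protocadherins were sparse in single cells and none passed the filter. Reads from the 3′ end of *Pcdha* and *Pcdhg* messengers fall in constant exons, and 1 *Pcdha*, 20 *Pcdhb*, and 17 *Pcdhg* genes had a row. Summed over the plates, *Pcdhb* stood at 71.5 CPM in the neural gate (69 transcripts), 60.02 in the endothelial gate (100 transcripts), 26.4 in the mural gate (41 transcripts), and 3.65 in the microglial gate (5 transcripts). This is the order of the bulk sums of *Pcdhb*. *Pcdhg* stood at 21.8 in the neural gate, 22.2 in the endothelial gate, 16.8 in the mural gate, and 2.92 in the microglial gate, on 21, 37, 26, and 4 transcripts, and the neural excess of the bulk libraries was not seen.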

How the data were processed

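The members, gene lists, and tests were chosen with earlier results of these data known. Bulk values, as deposited by the authors, are a signal per gene on mm10, the read count over 1 factor per library (normalized count), and the submitters' processing notes name STAR, featureCounts, and DESeq2 without a role. Within each library the low values were whole multiples of 1 step (100% of 124078 values within 0.01), so that reads were recovered. Genes with a mean of at least 10 over 12 libraries (19765) entered a fit of log2(normalized count + 1) by limma 3.58.1 (R 4.3.3) with an empirical Bayes trend and all 4 populations, and p-values were adjusted by Benjamini-Hochberg over all genes per contrast. Fold changes are on that scale and understate changes of low genes. edgeR 4.0.16 and DESeq2 1.42.0 on the recovered reads were alternatives. Single-cell tables as deposited by the authors hold transcripts per well, counted by molecular identifier and corrected for collisions (BWA 0.6.2-r126 is named in the notes). Rounded counts of wells with over 1500 transcripts were summed by gate and plate and tested with edgeR (TMM, filterByExpr). Plates share well barcodes by design, so that shared cells could not be counted. Whether doublets were removed is not given in the sources used here, and no caller was run. *Mof* knockout wells were left out. Values of every library are given for non-clustered members led by 1 population or with a mean of at least 100 in some population, for the 5 C-type genes, and for the 3 clustered members per cluster with the highest means, and of the lists of partner genes those over 10-fold higher are named. Library numbers mark brains sorted together, and residuals of same-numbered libraries correlated at -0.05 to 0.08 over 18 pairs. The paper reports that the single cells were taken in equal numbers from 3 separate wild-type brains. Nothing says which plate held cells of which brain. On simulated bulk data limma recovered 12 of 50 genes at 2-fold, 49 at 4-fold, and 50 at 10-fold in the neural contrast over 20394 genes. Gene models are GENCODE vM21 (GRCm38). Exon lengths, promoters, and motifs were computed in Python 3.11.15 with pandas 2.3.3, numpy 2.4.6, and scipy 1.17.1.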

Additional observations from a re-analysis of the deposited data

How the results depend on the processing

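Of the members' own differences under the alternatives, 692 kept direction and side of the threshold, 47 fell back over it, 19 newly passed it, and 6 changed sign. *Pcdhb10* in mural cells (-0.27) turned to 3.57 with edgeR, 0.16 with a pseudocount of 10, and 1.23 without the neural libraries, and ranged from -3.23 to 1.54 with 1 brain left out. *Pcdhga2* in endothelial cells (0.10) ranged from -3.11 to 2.06 with 1 brain left out. With a replicate block for the brain, the members' differences for their highest populations kept their side of the threshold. Of the members' other calls, *Pcdhb10* was no longer higher in neural cells (39 in place of 40 clustered members, 32.5% of all genes). *Pcdhgb7* was newly higher in mural cells (1 in place of 0, 18.3%), and *Pcdh15* and *Pcdhga12* were no longer lower in microglia (21.6%). Under this block 15 in place of 17 clustered members were led by neural cells (16.7%), without *Pcdhb11* and *Pcdhga1*. With the minimum of 10 taken over the 9 libraries of the other populations, an alternative chosen after seeing the data, neural cells led 5 non-clustered and 5 clustered members (13.9%). In what follows the share of all genes under the same setting and call stands in brackets. With a minimum of 50 in place of 10, neural cells led 7 non-clustered and 6 clustered members (19.4%), clustered members higher numbered 23 for neural (36.8%), 1 for mural (22.5%), and 5 for endothelial cells (21.0%), and 23 were lower in microglia (25.3%), where fewer genes were tested. With edgeR 2 non-clustered members were led by mural cells (3.38%), 6 clustered members were higher in mural cells (20.4%), and in microglia 2 non-clustered members were higher (22.7%) and 18 clustered members lower (15.4%). DESeq2 gave 10 clustered members led by neural cells (12.1%), 6 higher in mural cells (20%), 5 higher in endothelial cells (20.9%), and in microglia 2 non-clustered members higher (22.4%) and 12 lower (17.7%). A pseudocount of 10 gave 2 non-clustered members led by mural cells (4.86%), 1 led by microglia (9.25%), and 5 clustered members higher in endothelial cells (19.6%). Quantile normalization gave 2 clustered members higher in mural cells (22.7%) and took *Pcdh12* from those led by endothelial cells. Without the neural libraries, where a population is set against 2 others, mural cells led 4 non-clustered members and 1 clustered member (5.23%) and had 4 clustered members higher (13.3%), endothelial cells led 5 (4.66%) and had 5 clustered members higher (11.7%), and microglia led 1 (9.13%) and had 7 non-clustered and 11 clustered members lower (14.7%). With 1 brain left out in turn, non-clustered members led by mural cells numbered 0 to 1 (2.39 to 2.95%). Those led by endothelial cells numbered 1 to 2 (2.79 to 3.44%). Clustered members higher then numbered 1 to 3 in mural cells (13.3 to 15%) and 1 to 4 in endothelial cells (13.7 to 15.7%). In microglia 0 to 1 clustered and 1 to 2 non-clustered members were then higher (16.4 to 18.8%). In single cells without a filter 16 members were higher in the neural gate (12.6%) and 2 in the microglial gate (11.6%). With 1 plate left out the neural gate had 5 to 9 higher (11.8 to 22.2%). The cause of these shifts was not tested. Of 910 adjusted p-values of members in DESeq2, 207 were not given. Libraries of 17638358 reads or more limit members under about 10 normalized counts, and the 6 to 14 cells per gate of plate 3 limit its sums.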

Other observations

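Some members outside neural cells rested wholly or in large part on a single library. In Mi-343 *Cdh4* stood at 6436, *Cdh1* at 90.1, and *Cdh12* at 83.0, against at most 12.6, 29.0, and 1.19 in the other microglial libraries. In Mi-340 *Cdh17* stood at 84.4 and was at 0 in the other microglial libraries. In Mu-346 *Cdh12* stood at 77.0 and *Cdh26* at 71.4, and both were at 0 in the other mural libraries. These genes were picked after their values were seen.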
